A study of Mus musculus with 42 samples.

Results

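β-catenin is the nuclear effector of canonical WNT signalling. When WNT is active, or when glycogen synthase kinase 3 is blocked by CHIR99021 (CHIR), β-catenin escapes degradation, enters the nucleus and is tethered to DNA through TCF and LEF proteins, since it has no DNA-binding domain of its own. CDX1, CDX2 and CDX4 are caudal-type homeodomain factors of the posterior embryo that bind words ending in ATAAA and are known for their part in the activation of trunk Hox genes. The 6 libraries described here asked where β-catenin sits on chromatin in cells with and without the CDX factors.

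The 6 libraries, of 42 samples in the series, were β-catenin chromatin immunoprecipitations (ChIP-seq) from 3 wild-type (WT) and 3 CdxKO replicates, taken by the labels of cell line, antibody and condition. Both genotypes were mouse embryonic stem cells of the HM1 background, a 129-strain line. WT cells carried intact Cdx genes, and CdxKO cells carried Cdx1, Cdx2 and Cdx4 null alleles. Both were differentiated for 72 h in 10 ng/ml bFGF with 5 µM LGK974, an inhibitor of WNT secretion, and both received CHIR for the last day, so CHIR treatment was shared by the 2 groups. The genotypes were carried by different lines, and line and genotype cannot be told apart. β-catenin libraries of 3 replicates of T/BraKO cells, which lack the mesoderm factor T (Brachyury) and had the same treatment, were used as a further genotype. Their calls played no part in choosing sites, although their peaks entered the merging of peaks into regions. Markers of the cell type cannot be read from peak lists.

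Each library was available as a list of MACS2 peaks with a fold enrichment (signal at the summit over the local background) and a −log10 q. The lists differed in length, with 40067, 108507 and 469083 peaks in WT replicates 1, 2 and 3 and 85949, 40630 and 140907 in CdxKO replicates 1, 2 and 3. On the log10 scale the WT mean was 5.10 ± 0.537 (SD, n = 3) and the CdxKO mean 4.90 ± 0.272, and the groups overlapped (two-sided exact permutation p = 0.7, where 3 against 3 cannot go below 0.1). The 20000 best peaks of each library by −log10 q were therefore compared. The last of them had a −log10 q of 4.29, 5.64 and 11.1 in WT and 5.69, 4.77 and 6.66 in CdxKO, so that a peak just outside the limit in WT replicate 3 was stronger than many peaks inside it elsewhere.

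Overlapping best peaks were merged into regions, of which 74469 held a peak of at least 1 WT or CdxKO library. β-catenin was called in all 3 WT and in 0 of 3 CdxKO libraries at 375 regions, 0.504% of the 74469, and these are termed WT-only sites. The mirror-image class, CdxKO-only sites, held 239 regions (0.321%), and 3630 regions (4.87%) were called in all 6 libraries and are termed common sites. A further 384 and 817 regions were called in all 3 WT libraries and in 1 or 2 CdxKO libraries. Since the peaks chose the classes, the β-catenin values of their sites are given as a description. Pairwise overlap of the 6 libraries was low, with a Jaccard index between 0.174 and 0.236. The mean index was 0.206 within WT, 0.217 within CdxKO and 0.200 between genotypes, an excess within genotypes of 0.0113 (one-sided exact permutation p = 0.1, the smallest that 10 splits allow).

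The best WT-only sites were strong β-catenin sites that held CDX words, whereas the best CdxKO-only sites were weaker and held none. The sequences around the summits are given first for sites that show this contrast. They are the plus strand of the mm10 build, 121 bases centred on the summit, read from the RefSeq assembly GRCm38.p6. Capitals mark CDX and TCF/LEF words on either strand. The CDX words searched were TCATAAA and TAATAAA as well as CCATAAA and also CAATAAA, which share the ending ATAAA. The TCF/LEF words were CTTTGAA and also CTTTGAT. The first 5 are WT-only sites, upstream of Meis3, in an intron of Cep112, inside Hoxa3, inside Hoxc4 and upstream of Cdx2. The next 3 were called higher in WT by a test described further on, and the last 2 are CdxKO-only sites, in Kcnma1 and upstream of Nanog.
Meis3 (chr7:16174174-16174294): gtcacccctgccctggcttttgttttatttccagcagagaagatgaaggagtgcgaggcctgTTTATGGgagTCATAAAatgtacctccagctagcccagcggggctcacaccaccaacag
Cep112 (chr11:108528147-108528267): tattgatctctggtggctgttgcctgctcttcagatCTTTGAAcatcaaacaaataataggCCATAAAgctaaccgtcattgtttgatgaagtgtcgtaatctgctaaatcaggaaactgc
Hoxa3 (chr6:52177003-52177123): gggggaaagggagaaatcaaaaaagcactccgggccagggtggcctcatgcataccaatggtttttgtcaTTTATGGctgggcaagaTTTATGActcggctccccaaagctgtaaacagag
Hoxc4 (chr15:103024274-103024394): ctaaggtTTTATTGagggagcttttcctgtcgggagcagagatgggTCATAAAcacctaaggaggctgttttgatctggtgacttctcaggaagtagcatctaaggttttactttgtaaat
Cdx2 (chr5:147309349-147309469): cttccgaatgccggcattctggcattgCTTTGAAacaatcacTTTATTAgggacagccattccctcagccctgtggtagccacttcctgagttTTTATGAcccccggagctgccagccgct
Bdh1 (chr16:31535372-31535492): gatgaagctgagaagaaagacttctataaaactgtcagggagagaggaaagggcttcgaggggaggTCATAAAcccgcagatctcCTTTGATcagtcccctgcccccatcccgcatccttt
Hoxb9 (chr11:96272041-96272161): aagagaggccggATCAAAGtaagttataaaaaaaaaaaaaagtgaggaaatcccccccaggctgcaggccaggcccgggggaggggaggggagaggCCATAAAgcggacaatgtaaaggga
Hoxb4 (chr11:96319356-96319476): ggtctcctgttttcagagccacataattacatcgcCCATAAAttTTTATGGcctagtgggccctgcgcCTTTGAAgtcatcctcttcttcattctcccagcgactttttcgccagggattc
Kcnma1 (chr14:23446526-23446646): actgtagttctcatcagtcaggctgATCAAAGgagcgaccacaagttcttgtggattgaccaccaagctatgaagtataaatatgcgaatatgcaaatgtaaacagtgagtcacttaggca
Nanog (chr6:122703767-122703887): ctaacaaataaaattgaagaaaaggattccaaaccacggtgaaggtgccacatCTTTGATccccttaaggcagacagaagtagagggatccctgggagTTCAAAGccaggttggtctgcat

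CDX words were frequent at WT-only summits. A CDX word lay within 100 bp of the summit at 177 of 375 WT-only sites, 47.2% (95% Wilson interval 42.2 to 52.3), against 21 of 239 CdxKO-only sites (8.79%, 5.82 to 13.1) and 320 of 3630 common sites (8.82%, 7.94 to 9.78). Windows of the same length moved by 1000 bp held one at 18.4%, 17.6% and 17.4% of the 3 classes, and the windows of all 96073 regions of the 9 β-catenin libraries at 13.3%. The share was therefore above its moved windows at WT-only sites and below them at the other classes. Median GC content of the windows was 46.3%, 48.3% and 49.3% at WT-only, CdxKO-only and common sites, and its part in the shares was not tested. Intervals cover counting error over sites only, since all sites of a class come from the same libraries.

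The CDX words of WT-only sites clustered at the summit. A word lay in the 100 bp centred on the summit at 36.8% of WT-only sites, and in a 100 bp bin 400 bp upstream at 9.87%. At CdxKO-only and common sites the central bin held a word at 3.77% and 3.91%. The nearest word was a median 32 bp from the summit at the 177 WT-only sites with one, and 54 bp at the 320 such common sites. Each of the 4 words was represented, with TCATAAA at 16.8% of WT-only sites, CAATAAA at 15.5%, CCATAAA at 13.6% and TAATAAA at 11.7%, against 1.87 to 2.81% for each at common sites. At least 2 words were found at 12.3% of WT-only sites and at 0.496% of common sites.

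**Figure D1:**
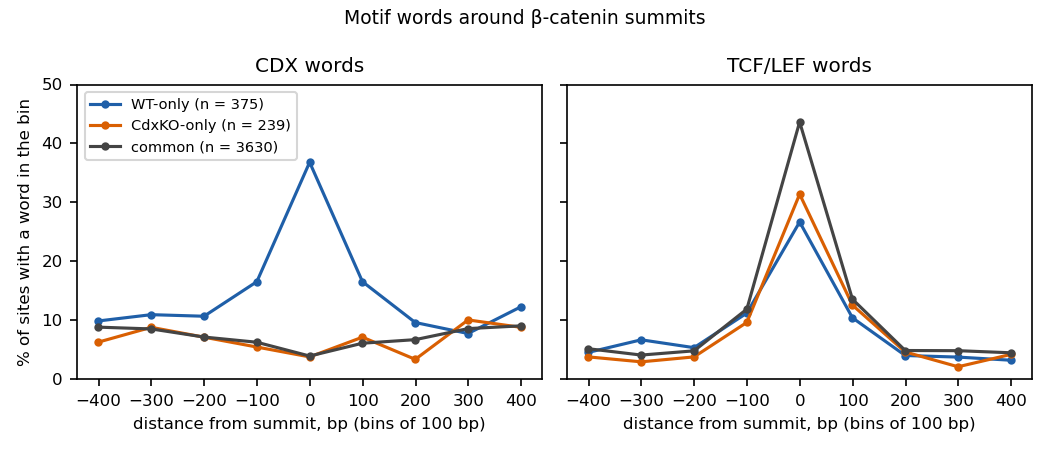
Share of sites (%) with a CDX word (left) or a TCF/LEF word (right) in bins of 100 bp around the β-catenin summit, for WT-only (n = 375), CdxKO-only (n = 239) and common sites (n = 3630). CDX words peak at the summit of WT-only sites (36.8%) and dip at common ones (3.91%), while TCF/LEF words peak in all 3 classes (26.7%, 31.4% and 43.6%).

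TCF/LEF words, the known entry point of β-catenin to DNA, were found near the summit in every class. They lay within 100 bp at 37.6% of WT-only sites (32.8 to 42.6), 43.1% of CdxKO-only sites (37.0 to 49.4) and 54.3% of common sites (52.7 to 55.9), against 9.33%, 7.95% and 7.88% in the moved windows. Both a CDX and a TCF/LEF word were present at 74 WT-only sites (19.7%), 13 CdxKO-only sites (5.44%) and 165 common sites (4.55%). SOX words (CCATTGT or CCTTTGT, either strand) were at 15.7%, 18.4% and 15.3%, shares whose intervals overlapped, and CCTTTGT shares the letters CTTTG with the TCF/LEF words. The T-box word AGGTGTGA was at 1.60%, 2.93% and 1.93%. Over all 96073 windows the shares were 19.4% for TCF/LEF, 9.82% for SOX and 1.34% for T-box words. None of the 4 motifs lay in the window of 112 WT-only sites (29.9%), 102 CdxKO-only sites (42.7%) and 1201 common sites (33.1%).

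Library by library, before any site was classed, the CDX word share was higher in WT than in CdxKO, but in every library it lay below that of the moved windows. Over the 20000 best summits a CDX word was found at 14.1%, 12.9% and 15.0% in WT replicates 1, 2 and 3 and at 9.30%, 9.47% and 10.1% in CdxKO replicates 1, 2 and 3. The moved windows held one at 16.2%, 16.6% and 16.9% in WT and at 16.7%, 16.6% and 16.7% in CdxKO. Every WT library was above every CdxKO library, with a difference of 4.40 percentage points (two-sided exact permutation p = 0.1, adjusted p = 0.267 over 4 motifs, the smallest p the design allows being 0.1). The difference was 7.13 points with the 5000 best peaks and 2.81 with the full lists (exact permutation p = 0.2), where the groups were no longer fully apart. In the best 2000 summits the means were 13.7% ± 2.30 (SD, n = 3) in WT, 6.67% ± 0.208 in CdxKO and 13.7% ± 1.73 in T/BraKO. TCF/LEF words were at 27.5% ± 1.16 of the 20000 best summits in WT and 29.2% ± 1.55 in CdxKO (exact permutation p = 0.2, adjusted p = 0.267), and the groups overlapped. SOX and T-box words also overlapped between the groups (adjusted exact permutation p = 0.6 and 0.267).

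The 12 WT-only sites with the best mean rank among the 3 WT lists all held a CDX word within 100 bp of the summit, and 7 of them a TCF/LEF word. Their fold enrichment ran from 15.2 to 64.6 over the 36 WT values. In the full CdxKO lists, which extend past the 20000 best peaks, 9 of 36 values existed and ran from 2.40 to 5.24, and 4 of the 12 sites had no peak in any of the 3 CdxKO lists. In T/BraKO all 36 values existed, from 11.1 to 87.4, and all 12 sites were among the best peaks of 3 of 3 libraries.

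The best of them lay 1041 bp upstream of Meis3 (chr7:16173993-16175029), which encodes a TALE homeodomain partner of HOX proteins. Its fold enrichment was 41.6, 39.1 and 50.3 in WT, was 4.27 in CdxKO replicate 2 and had no peak in the other 2 CdxKO lists, and was 71.7, 47.3 and 59.3 in T/BraKO. All WT and T/BraKO values were far above the single CdxKO one. An intron of Cep112, a centrosomal protein gene, held the second (chr11:108527130-108528560), with 38.4, 30.4 and 64.6 in WT, no peak in any CdxKO list and 45.3, 17.2 and 61.7 in T/BraKO. The third, in an intron of Mitf (chr6:97864274-97865261), a transcription factor gene of pigment cells, had 26.6, 31.3 and 58.5 in WT, again no peak in CdxKO and 21.1, 13.6 and 29.7 in T/BraKO. No CdxKO library had a peak at either intron.

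The ninth-ranked site lay within Hoxa3 (chr6:52176777-52177562), 435 bp upstream of the start of the overlapping transcript 5730596B20Rik. It had 28.7, 17.7 and 38.3 in WT, 4.98 in CdxKO replicate 3 only, and 20.9, 11.1 and 21.0 in T/BraKO. Prickle1, a planar cell polarity gene, carried the eleventh in an intron (chr15:93510710-93511213), with 24.4, 19.5 and 39.6 in WT against 5.07 in CdxKO replicate 3 alone. The other 7 were in introns of Pde11a (nearest start Ttc30a1), Rbfox3, Wdfy4 (nearest start Lrrc18) and Psd3, in an exon of Pdcd1lg2, and between genes nearest to Sp4 (263567 bp) and Tcp11 (18634 bp). Of the 12, 8 lay more than 10000 bp from the nearest protein-coding start, and a nearest gene is a position and not a measured target.

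CdxKO-only sites were weaker. Over all 239 the median of the mean fold enrichment in CdxKO was 7.69 (quartiles 6.83 to 8.59) and none exceeded 20, whereas over the 375 WT-only sites the median in WT was 9.34 (7.77 to 12.9) and 21 exceeded 20. Common sites had a median of 15.7 in WT. The highest-ranked CdxKO-only sites were nearest to Gm28269, Tecrl, Kcnma1, Arl5a, Ankk1, Scgb1b10, Gm21886 and Enc1, with 7.59 to 17.4 in CdxKO over 24 values. In the full WT lists 7 of 24 values existed, from 2.85 to 7.61. None of these 8 sites held a CDX word, and 4 held a TCF/LEF word. In an intron of Kcnma1, a potassium channel gene, the T/BraKO libraries also had a peak in every list, while 13 of 24 values existed in T/BraKO over the 8 sites.

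**Figure D2:**
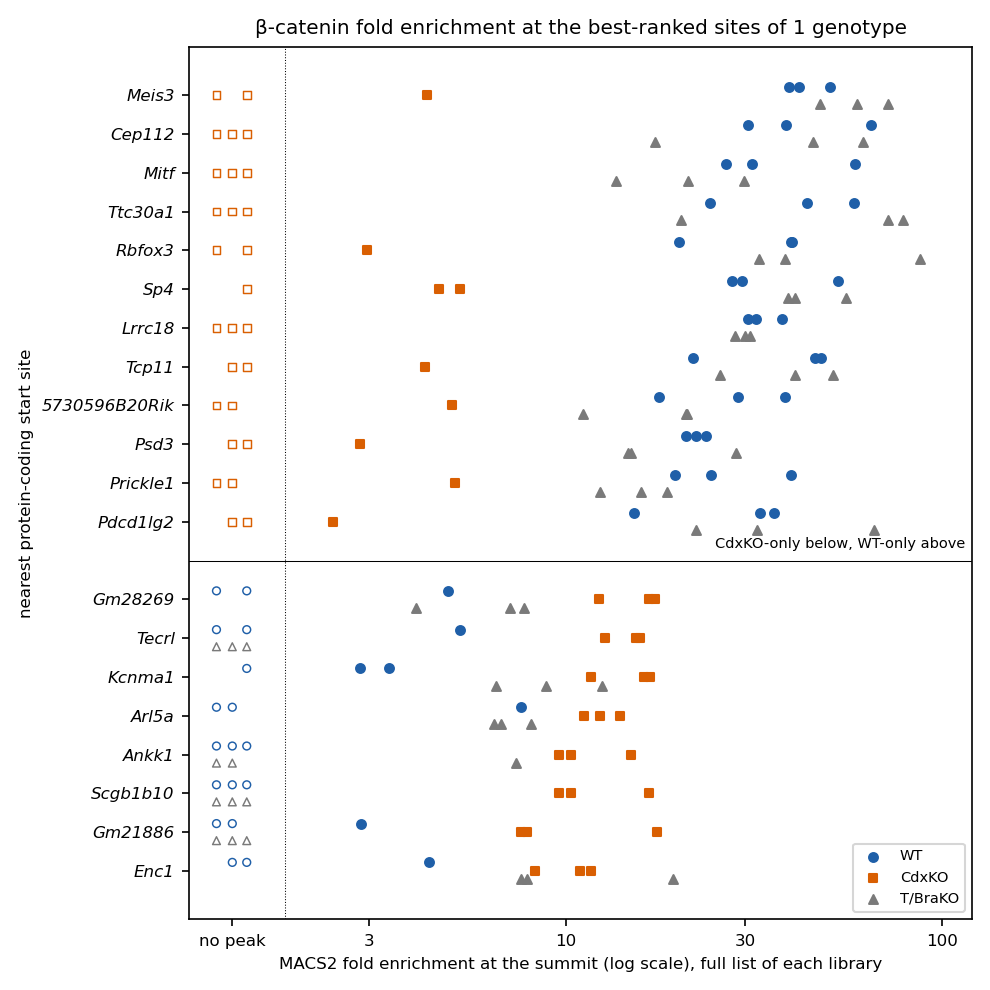
MACS2 fold enrichment (log axis) of the 12 best-ranked WT-only sites (top) and the 8 best-ranked CdxKO-only sites (bottom), labelled by the nearest protein-coding start, with 1 point per library for WT, CdxKO and T/BraKO. Open symbols left of the dotted line mark a library with no peak in its full list. WT values of the upper sites run from 15.2 to 64.6 and CdxKO values of the lower sites from 7.59 to 17.4.

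Absence from the 20000 best peaks was not always absence from the list. Of the 375 WT-only sites, 167 (44.5%) had no peak in any full CdxKO list, 127 had one in 1 list, 67 in 2 and 14 in all 3. Of the 239 CdxKO-only sites, 41 (17.2%) had no peak in any full WT list, 98 had one in 1, 78 in 2 and 22 in all 3. The full WT lists were the longer ones in replicates 2 and 3 by these counts of peaks, and the part of list length in this asymmetry was not tested. At the 167 WT-only sites absent from every CdxKO list the CDX word share was 58.1% (50.5 to 65.3), and at the 41 mirror-image sites it was 7.32% (2.52 to 19.4).

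WT-only sites were mostly called in T/BraKO cells, whose calls the rule did not use. Regions merged without the T/BraKO peaks gave 371 WT-only and 239 CdxKO-only sites. The 375 WT-only sites were among the 20000 best peaks of T/BraKO replicates 1, 2 and 3 at 76.0%, 64.5% and 77.9%, and 197 of 375 (52.5%) were called in all 3. CdxKO-only sites were called at 52.3%, 45.6% and 46.0%, and 51 of 239 (21.3%) in all 3. Common sites were called at 86.9%, 84.4% and 88.8%, and each T/BraKO library called 20.3 to 20.4% of all regions.

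Libraries left out of the choice gave a further reading. Sites were chosen again from replicates of 2 numbers (called in both WT and in neither CdxKO library) and looked up in the pair of libraries with the remaining number. The site sets called in WT were found in the held-out WT library at 56.8%, 43.1% and 48.9% (replicates 1, 2 and 3 held out, 834, 1248 and 1016 sites) and in the held-out CdxKO library at 22.4%, 25.7% and 21.2%, where these libraries called 20.2 to 20.6% of all regions. For sites chosen the other way the held-out CdxKO library called 50.3%, 41.0% and 37.9% and the held-out WT library 43.1%, 33.5% and 21.6%. In the full lists the held-out WT and CdxKO libraries held the first kind at 67.9% against 46.8%, 66.7% against 35.3% and 82.2% against 46.5%. The second kind was in the full CdxKO and WT lists at 72.1% against 56.7%, 52.3% against 56.5% and 62.9% against 63.0%. The direction was kept in 3 of 3 pairs for sites called in WT, and for sites called in CdxKO in 3 of 3 pairs with the best peaks and in 1 of 3 with the full lists, whose lengths differ.

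The genomic places of the classes had overlapping shares. WT-only sites were in promoters (within 1000 bp of a start) at 13.3% (95% Wilson interval 10.3 to 17.1), exons at 4.27%, introns at 36.0% and between genes at 46.4% (41.4 to 51.5). CdxKO-only sites were at 10.0% (6.84 to 14.5), 1.67%, 36.8% and 51.5% (45.2 to 57.7), and common sites at 11.7%, 2.29%, 37.7% and 48.3%. The median distance to a protein-coding start was 40.9 kb, 44.9 kb and 33.1 kb in the same order. At the 167 WT-only sites absent from the full CdxKO lists the promoter share was 6.59% (3.72 to 11.4). Library by library, promoters held 15.0% ± 3.16 (SD, n = 3) of the 20000 best summits in WT and 13.4% ± 1.04 in CdxKO, and no difference in the 4 places was past the threshold (exact permutation p from 0.2 to 0.7, adjusted p = 0.7 for each over 4 tests).

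Hox genes had the highest share of loci with a WT-only site among the gene lists. A locus was the gene with 10000 bp on either side, and 1.19% of 21911 protein-coding genes had a WT-only site in it. Among 39 Hox genes 17 did (43.6%), and because neighbouring loci overlap they shared 11 sites. In the other direction 3 Hox genes (7.69%, against 0.685% of all genes) had a CdxKO-only site, all of them the same one near Hoxb6. Among the listed HOX cofactor genes, Meis2 had a WT-only site and Meis3 had 2. These lists were drawn up with earlier results of the data known, so their counts are descriptions.

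In the 4 Hox clusters 146 regions were called in at least 1 of the 6 libraries, and 11 of them (7.53%) were WT-only, 1 CdxKO-only and 15 common. The number of peaks there among the 20000 best was 86, 63 and 59 in WT and 38, 44 and 56 in CdxKO, ranges that did not overlap, and 88, 69 and 92 in T/BraKO. In the full lists the numbers were 141, 178 and 351 in WT and 127, 85 and 159 in CdxKO, which overlapped. Regions called in all 3 libraries of a genotype numbered 40, of which 37 were called in 3 of 3 WT and 18 in 3 of 3 CdxKO libraries. Of the 22 called in 3 WT and fewer CdxKO libraries, 16 held a CDX word and 6 a TCF/LEF word. Of the 15 called in all 6, 2 held a CDX word and 9 a TCF/LEF word. HOX proteins are homeodomain factors that set position along the body axis, and their genes lie in order of that position.

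The nearest Hox genes of the WT-only sites ran from group 3 to group 11, and none of these sites lay nearest to a group 1 or 2 gene. At the Hoxb8 start the promoter site (chr11:96281406-96282362, 159 bp upstream) had 12.9, 10.3 and 8.55 in WT and no peak in any CdxKO list, and the intron site (chr11:96283252-96284266) had 16.9, 12.9 and 11.8 in WT and 3.65 in CdxKO replicate 3 alone. The Hoxc4 intron site 5400 bp after a start (chr15:103024044-103024762) had 13.4, 9.55 and 9.14, the Hoxc8 exon site (chr15:102992639-102993285) had 13.4, 7.38 and 8.09, and a second Hoxa3 site (chr6:52182570-52183183) had 11.05, 6.42 and 16.2. None of these 3 had a peak in a CdxKO list. The Hoxd4 site (chr2:74720811-74721516) was weaker, with 6.30, 5.50 and 8.32 in WT and none in CdxKO. Of the 11 WT-only sites in Hox loci, 5 had no peak in any CdxKO list. The WT-only site at the Hoxb9 promoter (chr11:96270411-96271404) had a peak in every list, with 5.95, 7.20 and 19.8 in WT and 3.81, 4.27 and 5.06 in CdxKO. Its log2 difference was 1.09 (limma adjusted p = 0.393), and it held no CDX or TCF/LEF word. The Hoxa5 site had 5.24 in CdxKO replicate 1, and the Hoxc11 site 4.92 in CdxKO replicate 3. In T/BraKO the Hoxb8 promoter site had 11.8, 3.20 and 11.9, and the Hoxc4 intron site 13.8, 11.1 and 12.4.

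Further sites in the clusters missed the WT-only class because 1 CdxKO library called them, and they are named after their values were seen. The Hoxb4 promoter region (chr11:96315639-96317331) had 82.6, 42.7 and 96.0 in WT, 5.36 in CdxKO replicate 3 and no peak in the other CdxKO lists, and 64.2, 43.5 and 81.1 in T/BraKO. The Hoxa4 promoter region (chr6:52190618-52191291) had 47.9, 27.8 and 77.0 in WT, 5.93 in CdxKO replicate 2 alone, and 49.5, 27.1 and 48.3 in T/BraKO. Common regions lay near Hoxb1, Hoxb2 and Hoxd1, and also near Hoxb4, Hoxb9, Hoxb13, Hoxc4, Hoxc5, Hoxc10 and Hoxd3. The Hoxd1 region (chr2:74759401-74760984) had 99.1, 74.6 and 88.0 in WT and 69.4, 54.8 and 62.8 in CdxKO, and the Hoxb1 promoter region (chr11:96364826-96366211) had 42.0, 35.2 and 50.7 in WT and 52.1, 49.6 and 30.2 in CdxKO. These 2 regions did not pass the test for a difference (limma adjusted p = 0.824 and 0.978). The CdxKO-only site 537 bp upstream of Hoxb6 (chr11:96291530-96292068) had 4.98, 5.24 and 6.52 in CdxKO and 4.49 in WT replicate 3.

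Other developmental lists had few such sites, though some shares were above the 1.19% of all genes with a WT-only site. Of 19 WNT feedback and target genes, 14 (73.7%, against 9.29% of all genes) had a common site and 3 (15.8%) a WT-only one, at Znrf3, Sp8 and Lef1. The WT-only site of Lef1 (chr3:131143377-131143617), in an intron, was weak, with 5.16, 5.13 and 8.99 in WT and 5.17 in CdxKO replicate 2. Of 18 WNT ligand genes and 13 caudal epiblast genes none had a WT-only or CdxKO-only site. Among 19 paraxial mesoderm genes Aldh1a2, which makes retinoic acid, had a WT-only site and Meox1 a CdxKO-only one. Pax7, a dorsal neural tube factor, carried 2 WT-only sites. Among 18 pluripotency and epiblast genes Nanog had a CdxKO-only site 3662 bp upstream, with 7.04, 4.57 and 8.71 in CdxKO and 4.65 in WT replicate 1, and its sequence above holds 2 TCF/LEF words and no CDX word. None of 15 mesendoderm genes had a site of either class. Since 1.19% of all genes had a WT-only and 0.685% a CdxKO-only site, lists of 13 to 18 genes would mostly hold none. These absences therefore do not set the lists apart.

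A site upstream of Cdx2 itself was WT-only. It lay 2139 bp from the start (chr5:147308778-147309809), with 11.8, 5.75 and 9.24 in WT, no peak in any CdxKO list and 12.1, 18.1 and 17.6 in T/BraKO. Its window held 2 CDX words and 1 TCF/LEF word. Which bases the CdxKO line lacks is not given in the sources used here, so loss of the sequence and loss of binding cannot be told apart at this site.

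Genes with 3 WT-only sites in their locus were Hoxa3, Hoxb9, Hoxc5, Gm28308, which overlaps Hoxa3, and 2010111I01Rik on chromosome 13. The first 4 lie in the Hox clusters. Loci with 2 were Hoxa4, Hoxb7, Hoxb8, Hoxc4, Meis3, Pax7, Psd3, Pmp22, Dysf, Cog5, Fancc and 5730596B20Rik.

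At promoters of general WNT targets β-catenin was called in both genotypes. The promoter of Sp5, a zinc finger gene induced by WNT (chr2:70473696-70476557), had 164, 100.2 and 210.1 in WT and 143, 148 and 169 in CdxKO. Axin2, a negative feedback regulator, had 67.7, 58.2 and 110.3 in WT and 58.3, 36.0 and 60.4 in CdxKO at its promoter (chr11:108919870-108923697). The T promoter (chr17:8433378-8434783) had 45.2, 52.1 and 55.7 in WT and 56.3, 39.6 and 47.4 in CdxKO. Values of the 2 genotypes overlapped at all 3 promoters. They also overlapped at the Lef1 promoter (chr3:131109237-131110939), with 16.5, 6.21 and 23.9 in WT and 31.9, 18.2 and 29.5 in CdxKO. Its log2 difference was -0.95, lower in WT (limma adjusted p = 0.499). Farther from these starts, and named after their values were seen, a region 25334 bp upstream of T had 27.7, 26.7 and 44.3 in WT and 8.54, 13.97 and 7.62 in CdxKO, a log2 difference of 1.69 that missed the threshold of the test described next (limma adjusted p = 0.0573). Regions 19823 bp upstream of T and 13395 bp upstream of Axin2 had log2 differences of 1.01 and 1.45 (limma adjusted p = 0.412 and 0.130). Among other regions near T and Axin2 both signs occurred. The log2 difference was 0.41 at 27149 bp upstream of Axin2, and -0.46 and -0.64 at 22517 bp upstream and 38682 bp downstream of its start. It was -0.45 at 4279 bp upstream of T (limma adjusted p from 0.708 to 0.850 over these regions). The 5 common sites of best mean rank were nearest to Mapkap1, Foxb1, Lrmda, 2510009E07Rik and Tmem176a, with 129 to 261 in WT and 99.7 to 236 in CdxKO, and each held a TCF/LEF word and no CDX word. The 10 common sites at Axin2, Sp5, T and Lef1 were also among the best peaks of all 3 T/BraKO libraries, and 6 of them held a TCF/LEF word.

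A quantitative comparison was possible at 6033 regions with a peak in all 6 full lists, and it was fitted by limma on quantile-normalised log2 fold enrichment. At an adjusted p (Benjamini-Hochberg over all 6033) under 0.05, 28 regions were higher in WT (0.464%) and 0 were higher in CdxKO (0.0%). At an unadjusted p under 0.05, 322 were higher in WT and 239 in CdxKO. A region that missed the threshold is not shown to be equal in the 2 genotypes. Regions without a peak in some list were not tested. Only 14 of the 375 WT-only sites had a peak in all 3 full CdxKO lists, and 22 of the 239 CdxKO-only sites in all 3 full WT lists. The 28 became 8 without WT replicate 1, 15 without WT replicate 3, 12 without CdxKO replicate 1 and 17 without CdxKO replicate 3. The 28 differed by 1.70 to 3.88 on the log2 scale, 3.25 to 14.8 times, and in all 28 every WT value and every T/BraKO value exceeded every CdxKO value as deposited. A CDX word lay within 100 bp of the summit at 18 of the 28 (64.3%), against 548 of the 6033 (9.08%), and a TCF/LEF word at 15 (53.6%), against 2924 (48.5%). The values come from bulk chromatin, in which fewer cells with β-catenin at a site and less β-catenin per cell cannot be told apart.

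The largest difference was at a region between genes on chromosome 16 (chr16:31534607-31535914), nearest to Bdh1, a ketone body enzyme gene, at 106133 bp. Its fold enrichment was 81.7, 56.8 and 119 in WT, 4.58, 5.60 and 6.63 in CdxKO and 89.6, 65.0 and 110.4 in T/BraKO. The log2 difference was 3.88 ± 0.413 (SE, limma adjusted p = 6.52e-07), and the printed sequence holds both a CDX and a TCF/LEF word. A region 28441 bp upstream of Gtf3a (chr5:146919373-146921117) had 61.0, 28.04 and 94.6 in WT and 4.03, 5.60 and 9.40 in CdxKO, a log2 difference of 3.16 ± 0.454 (limma adjusted p = 0.000211). In an intron of Acvr1b, an activin receptor gene (chr15:101182421-101183453), the values were 72.4, 33.3 and 74.0 in WT and 6.74, 7.32 and 14.5 in CdxKO, a difference of 2.62 ± 0.440 (limma adjusted p = 0.00249).

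Both tested Hox regions of the 28 were in the Hoxb cluster. The Hoxb9 promoter region (chr11:96271580-96273287, 578 bp after the start) had 26.8, 15.3 and 19.7 in WT, 4.22, 5.12 and 3.58 in CdxKO and 22.05, 23.0 and 23.0 in T/BraKO, a log2 difference of 2.26 ± 0.418 (limma adjusted p = 0.00432). The Hoxb4 intron region (chr11:96317418-96320513) had 52.2, 14.7 and 51.1 in WT, 6.45, 5.16 and 7.31 in CdxKO and 38.2, 38.6 and 39.8 in T/BraKO, a difference of 2.45 ± 0.456 (limma adjusted p = 0.00432), and it is named after its values were seen. Without WT replicate 1 the adjusted p of the 2 regions was 0.0593 and 0.0634. Over all 21 tested regions in Hox loci the median log2 difference was 0.12, against -0.02 over all tested regions, and 2 of the 21 were called. Of the 22 cluster regions called in 3 WT and fewer CdxKO libraries only 4 were tested, against 15 of the 15 called in all 6. The median therefore leaves out most Hox regions that lacked a CdxKO call.

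The rest of the 8 regions with the smallest p were nearest to Arhgap18 (in an intron of the laminin gene Lama2), Vwc2, Tmem132b and Gadd45g, a growth arrest gene, with log2 differences of 2.38, 2.51, 2.32 and 2.33. Each passed at an adjusted p of 0.00432, and without WT replicate 1 the Vwc2 region had 0.0530. Of the other regions called, 3 are named after their values were seen. The Fzd10 promoter (chr5:128596544-128601083), at a Frizzled receptor gene, had 58.3, 68.6 and 94.5 in WT and 19.3, 26.3 and 20.0 in CdxKO (limma adjusted p = 0.0438). A region 57189 bp upstream of Wls, the carrier of WNT ligands to the cell surface, had 106, 56.5 and 109.8 in WT and 41.8, 19.8 and 9.42 in CdxKO (limma adjusted p = 0.0306). One promoter region of Nr6a1, an orphan nuclear receptor gene (chr2:38924991-38926027), had 17.2, 19.9 and 23.8 in WT and 7.86, 6.46 and 4.45 in CdxKO (limma adjusted p = 0.0452). Another promoter region of the same gene (chr2:38785055-38785532) had 3.06, 6.73 and 8.72 in WT and 11.8, 12.7 and 12.1 in CdxKO, a log2 difference of -1.16 (limma adjusted p = 0.345). The 3 called regions are near the threshold and passed under 2, 7 and 1 of 10 alternative fits, for Fzd10, Wls and Nr6a1.

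The median difference was higher at regions with a CDX word than at those without. The median log2 difference was 0.21 over the 548 tested regions with a word and 0.72 over the 28 with at least 2, of which 5 were called. It was -0.04 over the 5485 without a word, of which 10 were called (0.182%), and -0.06 over the 2924 with a TCF/LEF word. By list, the medians were 0.14 for 34 regions of WNT feedback genes, 0.25 for 21 of WNT ligand genes, 0.14 for 13 of caudal epiblast genes, -0.13 for 17 of paraxial mesoderm genes, 0.03 for 15 of mesendoderm genes, 0.28 for 11 of pluripotency genes, 0.20 for 17 of anterior neural genes -0.11 for 17 of HOX cofactor genes and 0.47 for 5 of the Cdx genes. Apart from the 2 Hox regions no region of any list was called.

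**Figure D3:**
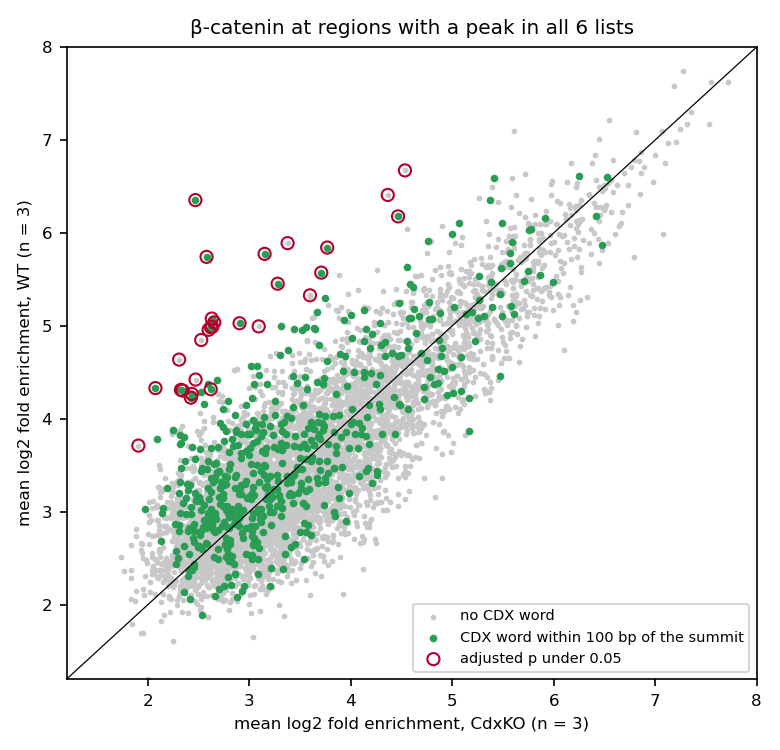
Mean log2 fold enrichment after quantile normalisation in CdxKO (horizontal, n = 3) and WT (vertical, n = 3) for 6033 regions with a peak in all 6 lists. Green points have a CDX word within 100 bp of the summit (548), circles mark the 28 regions with adjusted p under 0.05, and the line marks equal values. All circles lie above the line, and 18 of them surround a green point.

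In the direction of CdxKO the smallest p belonged to an intron of Cachd1 (nearest start Gm10577, chr4:100910662-100911337), with 13.0, 18.1 and 22.4 in CdxKO and 6.75, 5.61 and 3.40 in WT. Its log2 difference was -1.73 ± 0.425 (limma adjusted p = 0.0573). An intron of Ptprt, a receptor phosphatase gene, followed with 10.0, 14.2 and 26.1 in CdxKO and 2.54, 4.37 and 8.21 in WT (limma adjusted p = 0.0642). Of the 8 regions with the smallest p in this direction, 1 was a CdxKO-only site.

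SOX2 and LEF1, profiled in the same series, gave a readout from libraries that the choice of sites did not use. SOX2 is a HMG-box factor of the epiblast and neural lineage, and LEF1 is itself a carrier of β-catenin. Whether their libraries share cultures with the β-catenin libraries is not given in the sources used here. Over all regions, SOX2 was called at 4.86%, 4.62% and 8.88% in WT, at 9.27%, 9.70% and 8.90% in CdxKO and at 7.45%, 9.76% and 9.96% in T/BraKO. The part of these differences in the shares that follow was not tested. One of the 20000 best SOX2 peaks overlapped the WT-only sites at 19.7%, 18.4% and 46.4% in WT, at 17.3%, 16.0% and 15.5% in CdxKO, and at 31.7%, 38.1% and 52.3% in T/BraKO. All WT values were above all CdxKO values, but 2 of 3 by little, and without WT replicate 3 the difference was 2.80 percentage points. In the full SOX2 lists the shares at WT-only sites were 75.5%, 50.1% and 75.7% in WT and 35.7%, 32.3% and 38.4% in CdxKO, a difference of 31.6 points (two-sided exact permutation p = 0.1). These full lists called 31.3%, 16.0% and 21.0% of all regions in WT and 20.3%, 17.0% and 19.9% in CdxKO. At CdxKO-only sites SOX2 was called at 7.95%, 9.62% and 16.7% in WT and 26.8%, 30.1% and 29.3% in CdxKO.

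LEF1 peaks overlapped WT-only sites at 18.1%, 8.53% and 15.7% in WT, 3.47%, 4.00% and 4.53% in CdxKO and 9.60%, 9.60% and 10.9% in T/BraKO. At CdxKO-only sites they were called at 7.53%, 4.60% and 4.18% in WT and 12.1%, 11.3% and 9.62% in CdxKO. The differences, WT minus CdxKO, were 11.9 and 10.1 percentage points for SOX2 and LEF1 at WT-only sites and -17.3 and -5.58 at CdxKO-only sites. LEF1 was called at 2.55 to 3.58% of all regions in WT, 3.82 to 3.95% in CdxKO and 2.34 to 3.03% in T/BraKO. The full LEF1 lists called 21.9%, 20.6% and 9.29% of all regions in WT and 21.8%, 24.4% and 17.9% in CdxKO. With the full lists the difference for LEF1 at WT-only sites was 11.1 (exact permutation p = 0.2), and those at CdxKO-only sites were -10.2 for SOX2 (exact permutation p = 0.2) and -19.4 for LEF1 (exact permutation p = 0.1). With the best peaks each had a two-sided exact permutation p of 0.1 and an adjusted p of 0.1 over 4 tests, the smallest that 3 against 3 allows. Against WT and T/BraKO together the 4 differences of CdxKO had an adjusted exact permutation p of 0.0476 each. That comparison pools 2 genotypes over 84 assignments and does not measure WT against CdxKO alone. SOX2 at WT-only sites, for example, had a mean of 28.2% in WT and 40.7% in T/BraKO.

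SOX2 and LEF1 calls at common sites moved too, and they set the scale of these differences. SOX2 was called at 42.1% ± 13.0 (SD, n = 3) of common sites in WT and 58.2% ± 0.709 in CdxKO, and LEF1 at 36.4% ± 5.19 and 45.3% ± 0.740 (exact permutation p = 0.1 for both). With the full lists the means were closer for SOX2, at 76.5% in WT and 79.7% in CdxKO (exact permutation p = 0.5). For LEF1 they were 72.9% and 82.1% (exact permutation p = 0.2). With the best peaks, CdxKO was thus lower at WT-only sites and higher at both CdxKO-only and common sites. At common sites CdxKO exceeded WT and T/BraKO together by 11.4 points for SOX2 and 12.1 for LEF1 (unadjusted exact permutation p = 0.0952 and 0.0119). A gain of SOX2 and LEF1 calls in CdxKO was therefore not particular to CdxKO-only sites. At the 28 regions called higher in WT, LEF1 was among the best peaks at 19, 14 and 18 regions in WT, 7, 7 and 5 in CdxKO and 12, 17 and 15 in T/BraKO, and SOX2 at 17, 14 and 26, at 12, 12 and 12 and at 22, 25 and 26. In WT cells kept without CHIR, SOX2 overlapped WT-only sites at 17.6%, 19.2% and 17.1%, and it was called at 9.68%, 9.30% and 8.22% of all regions. With CHIR the WT shares were 19.7%, 18.4% and 46.4%, against 4.86%, 4.62% and 8.88% of all regions. The CdxKO shares were 17.3%, 16.0% and 15.5%, against 9.27%, 9.70% and 8.90%.

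**Figure D4:**
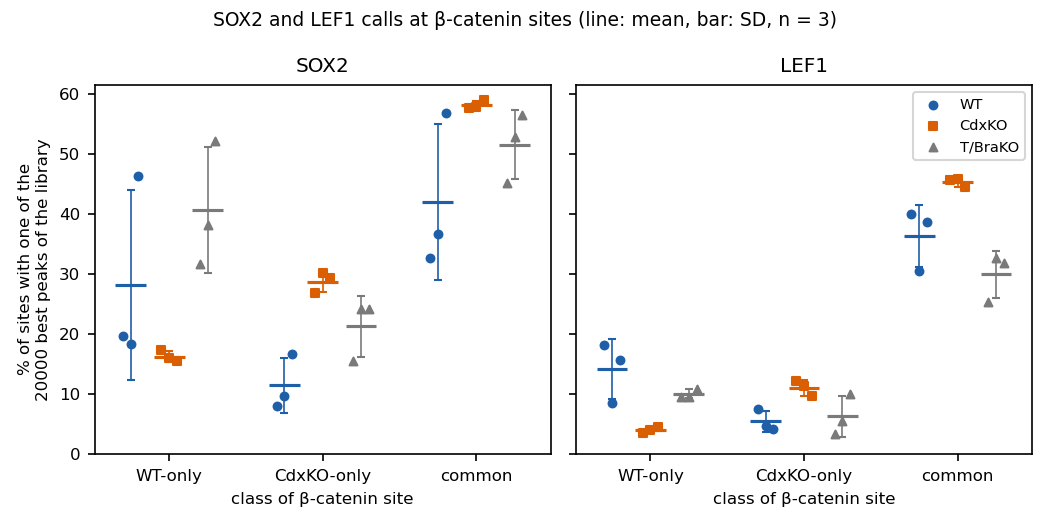
Share (%) of WT-only, CdxKO-only and common β-catenin sites that overlap one of the 20000 best SOX2 (left) or LEF1 (right) peaks, with 1 point per library, a line at the mean and a bar for the SD (n = 3). LEF1 at WT-only sites is 8.53 to 18.1% in WT and 3.47 to 4.53% in CdxKO, while at common sites CdxKO has the highest mean for both factors.

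Of the 12 best WT-only sites, 11 overlapped a best LEF1 peak in at least 1 WT library and 0 did in CdxKO. A best SOX2 peak in at least 1 library was found at 11 of the 12 in WT, at 3 in CdxKO, at 11 in T/BraKO and at 4 in WT kept without CHIR. The 3 with SOX2 in CdxKO were the sites near Sp4 and in Pdcd1lg2, where SOX2 was among the best peaks of all 12 SOX2 libraries, and the Hoxa3 site, where it was in 1 CdxKO library. At the Mitf intron SOX2 was called in 3 of 3 WT, 0 of 3 CdxKO and 3 of 3 T/BraKO libraries, also in the full lists.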

How the data were processed

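β-catenin, SOX2 and LEF1 were profiled by ChIP-seq on chromatin fixed with DSG and formaldehyde. The authors aligned reads to mm10 in the nf-core/chipseq pipeline and called peaks with MACS2 in each replicate. The deposited peak lists give a fold enrichment (a ratio to the local background) and a −log10 q value. Which input control went with which library is not given in the sources used here. Read depth is absent from peak lists and no counts were used, so the count test of the study was not applied.

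The 20000 best peaks per library by −log10 q were merged where they overlapped, and a region was called in a library that had one of them there. Places and loci came from the annotation of GRCm38.p6. Single values were compared with exact permutation tests over libraries, with Benjamini-Hochberg adjustment within each stated family. Regions with a peak in all 6 full lists were compared with limma 3.58.1 (R 4.3.3) on quantile-normalised log2 fold enrichment, and this step was tested on simulated data. Each library was treated as a replicate, as the labels call them biological replicates. Alternatives were the 5000 best peaks, the full lists, calls in at least 2 of 3 libraries, other window lengths, other normalisations, a replicate block and leaving out each library.

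Named sites were the 12 WT-only and 8 CdxKO-only sites of best mean rank, all sites of both classes within 10000 bp of a listed gene, the 8 regions of smallest p per direction, loci with 3 or more WT-only sites, and the 5 best common sites with those at Axin2, Sp5, T and Lef1. The sites and gene lists were chosen with earlier results of these data known. Values at some listed genes are not reported here.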

Additional observations from a re-analysis of the deposited data

How the results depend on the processing

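The number of sites depended on the rule for a call. WT-only sites numbered 214 with the 5000 best peaks, 892 with the full lists, 1625 with calls in at least 2 of 3 WT and 0 of 3 CdxKO libraries, and 474 to 927 when 1 library was left out. CdxKO-only sites numbered 102 with the 5000 best peaks, 1509 with calls in at least 2 of 3 libraries and 356 to 736 when 1 was left out. With the full lists 4 of the 12 best WT-only and 2 of the 8 best CdxKO-only sites kept their class. In the limma comparison 43 regions were higher in WT with the looser requirement of a peak in 2 of 3 lists and 8 (without WT replicate 1) to 27 without 1 library. Higher in CdxKO were 1 region without normalisation, 1 with median centring, 4 with the looser requirement, 1 with a replicate block and 0 to 2 without 1 library. Correlations of deviations were weak for same-numbered libraries (0.0425, -0.118 and 0.130), and those of differently numbered ones ran from -0.245 to 0.212. They cannot show whether replicate numbers pair the samples. With the replicate block 27 regions were higher in WT, 26 of them among the 28.

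The Jaccard excess was -0.00514 with the full lists. The difference in log10 peak number ran from -0.0782 to 0.456 without 1 library. Differences in the place shares changed sign for introns with the 5000 best peaks (0.233 percentage points), for intergenic sites with the full lists (0.0854), and without 1 library for promoters (-0.196 to 2.74) and introns (-1.21 to 0.03). For CdxKO against WT and T/BraKO together, the differences in SOX2 were 18.2 at WT-only and -12.3 at CdxKO-only sites (exact permutation p = 0.0476 and 0.0357), and in LEF1 8.09 and -5.16 (p = 0.0238 and 0.0357, exact), written as the others minus CdxKO. The SOX2 difference at WT-only sites was 2.80 without WT replicate 3 and up to 16.8 without another library. The cause of these changes was not tested. With 3 libraries a group no exact test of WT against CdxKO can go below 0.1, and a weak site may be missed in a short list.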
